A study of Mus musculus with 3 samples.

Results

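The genes described here belong to the nitric oxide and arginine pathway, and 10 of them were followed in neurons and other cells sorted from the atria of the mouse heart. They were chosen by symbol: Ass1, Asl, Nos1, Nos3, Nos1ap, Ddah1, Ddah2, Gucy1a1, Gucy1b1 and Prkg1. Each was found on 1 row of each deposited matrix, of 32285 features in the anterior and the posterior matrix and 31064 in the mixed one. The study profiled intrinsic cardiac neurons, the nerve cells of the small ganglia attached to the heart's atria, with anterior and posterior ganglia dissected apart. There were 3 libraries, made with the Chromium 3′ V3 single-cell assay, which reads the 3′ end of each captured transcript and counts it once by a unique molecular identifier (UMI). By label, the anterior library came from mice of 3 months, the posterior library from mice of 4 months and the third from mice of 2 months. The label of this last library names the atria with no section; it is called mixed here because the protocol describes pooled tissue for mixed ganglia, and the label itself does not say so. All 3 carried the genotype Baf53b-cre;lox-GFP, were labelled as female and male, and were sorted for fluorescence. Cre is driven by Baf53b, a neuronal chromatin remodelling subunit, so non-neuronal cells in these data are those that passed the sort. The protocol describes hearts of 10 mice harvested together, so a library is a pool of animals and not 1 animal. With 1 library per group, region, library and labelled age cannot be told apart. The spread over libraries therefore mixes region, age and preparation. The labelled ages differ between libraries, but no label names the animals. The titles of the anterior and posterior libraries share a prefix that looks like a date. Whether these libraries came from the same mice therefore cannot be told.

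Nitric oxide is made from arginine by nitric oxide synthases, of which Nos1 encodes the neuronal and Nos3 the endothelial form. The other product, citrulline, is turned back into arginine by argininosuccinate synthase (Ass1) and argininosuccinate lyase (Asl), so that a cell with both enzymes can renew its substrate. Nitric oxide activates soluble guanylate cyclase, a dimer of subunits encoded by Gucy1a1 and Gucy1b1, and the cyclic GMP formed activates the protein kinase encoded by Prkg1. Dimethylarginine dimethylaminohydrolases (Ddah1 and Ddah2) are named for the breakdown of asymmetric dimethylarginine, an inhibitor of the synthases, and Nos1ap encodes an adaptor that binds the neuronal synthase. In the heart, nitric oxide from neurons, endothelium and muscle is known as a modulator of autonomic transmission and of vascular tone.

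The upstream sequences of 4 members are shown because the cyclase subunits are neighbours in the genome and both were highest in mural cells, while Ddah1 and Ddah2 encode related enzymes whose levels went opposite ways. Gucy1a1 lies on chromosome 3 from 82092427 to 82145789 and Gucy1b1 on chromosome 3 from 82032006 to 82074689, both on the minus strand (GENCODE vM21, GRCm38), with 17737 bases and 0 annotated genes between them. Ddah1 lies on chromosome 3 from 145758675 to 145894277 and Ddah2 on chromosome 17 from 35059035 to 35062095, both on the plus strand. The RefSeq promoter table of build GRCm38.p6 held 8 of the 10 members, and up to 250 bases before the start are printed 5′ to 3′. A window ends earlier where GENCODE places the gene's start earlier. Capitals mark matches to 3 motifs, each searched on both strands. The first is the GC box with the letters GGGCGG, a common promoter element. Another is the CCAAT box. The last is the core of the cyclic AMP response element (CRE), with the letters TGACG. None of these windows held the TATA box, searched as TATAAA.
Gucy1a1 (chr3:82145790-82145900, minus strand): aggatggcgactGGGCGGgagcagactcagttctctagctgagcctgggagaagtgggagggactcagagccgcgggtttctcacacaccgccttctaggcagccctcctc
Gucy1b1 (chr3:82074712-82074961, minus strand): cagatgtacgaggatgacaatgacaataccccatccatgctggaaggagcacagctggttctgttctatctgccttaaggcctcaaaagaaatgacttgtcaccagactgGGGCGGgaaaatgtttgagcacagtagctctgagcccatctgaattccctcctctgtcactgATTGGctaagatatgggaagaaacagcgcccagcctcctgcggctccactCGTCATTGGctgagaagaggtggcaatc
Ddah1 (chr3:145758442-145758674, plus strand): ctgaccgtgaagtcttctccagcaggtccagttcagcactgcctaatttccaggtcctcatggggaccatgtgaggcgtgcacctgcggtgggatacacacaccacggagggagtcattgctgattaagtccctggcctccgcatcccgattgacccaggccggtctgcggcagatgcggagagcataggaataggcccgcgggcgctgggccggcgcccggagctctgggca
Ddah2 (chr17:35058785-35059034, plus strand): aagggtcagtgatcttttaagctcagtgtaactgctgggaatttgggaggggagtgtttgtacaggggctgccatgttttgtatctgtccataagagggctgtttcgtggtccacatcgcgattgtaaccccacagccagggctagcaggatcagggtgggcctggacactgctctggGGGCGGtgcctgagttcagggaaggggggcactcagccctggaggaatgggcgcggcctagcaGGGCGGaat
Gucy1a1 held 1 GC box in 111 bases, and 11.7% of 32851 windows of that length held one. Gucy1b1 held 1 GC box, 2 CCAAT boxes and 1 CRE core that overlaps the second CCAAT box, and 32.7%, 33.9% and 17.8% of windows of 250 bases held at least 1 of each. Ddah2 held 2 GC boxes, while Ddah1 held none of the motifs in 233 bases, where 30.3% of windows held a GC box. These matches are letters in a window and not binding sites.

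Cells were gated on fixed markers. Neurons had at least 10000 UMIs and a UMI of Snap25, Prph and Stmn2, and other cells had at least 1000 UMIs and at least 3 markers of 1 class. The anterior, posterior and mixed libraries held 1315, 1447 and 1998 neurons, with median depths of 39854, 57151 and 57062.5 UMIs. Glia numbered 171, 195 and 93, fibroblasts 96, 177 and 96, mural cells (smooth muscle cells and pericytes) 29, 47 and 102, and endothelial cells 31, 33 and 20. These classes had median depths of 2305 to 6703 UMIs, and 16.5 to 35.3% of barcodes fell in no gate. Each of the 8 or 9 markers of glia, fibroblasts, mural and endothelial cells was detected in its own class in every library. The gate used these same markers, so their detection is no independent check of the classes. Neuron genes were also counted in the other classes. Npy and 8 further neuron genes used in no gate had a median of 10.2%, 12.5% and 9.32% of their neuron level in glia of the anterior, posterior and mixed libraries. The medians were 7.52%, 5.28% and 2.21% in fibroblasts, 3.61%, 8.60% and 1.02% in mural cells and 4.35%, 9.80% and 5.20% in endothelial cells, and single genes reached up to 65.5% in glia. Markers of other cells were found in neurons too, where 546, 512 and 527 neurons held at least 3 markers of another class, mostly of cardiomyocytes (401, 288 and 29 neurons) or glia (177, 205 and 485 neurons). Libraries shared 2 or 3 barcodes in each pair.

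In neurons Ass1 and Gucy1a1 were the highest members and Nos1ap the lowest. UMIs of a 3′ assay do not scale with transcript length, so levels are given as UMIs per 10000 UMIs of the class. Ass1, the first enzyme of arginine renewal, averaged 5.54 ± 0.802 UMIs per 10000 (SD over 3 libraries), and Gucy1a1, the alpha subunit of the cyclase, 4.03 ± 0.529. Gucy1b1, its beta subunit, followed at 1.10 ± 0.0881, then Ddah1 at 0.933 ± 0.431, Ddah2 at 0.708 ± 0.0804, Asl at 0.561 ± 0.0915 and Nos1 at 0.424 ± 0.287. Nos3 averaged 0.162 ± 0.0324, Prkg1 0.0828 ± 0.0429 and Nos1ap 0.0522 ± 0.0106. The library ranges of Ddah1 and Nos1 overlapped those of their neighbours in this order, so that the ranks from Gucy1b1 down to Nos3 are not all set apart by the spread. Prkg1 and Nos1ap overlapped likewise, while Ass1 stood above Gucy1a1, and Gucy1a1 above all others, in every library.

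Ass1 and both cyclase subunits were in most neurons of every library, whereas Nos1 was in few. To compare shares at 1 depth, each neuron was thinned to 10000 UMIs. An Ass1 UMI then remained in 96.7% of anterior, 91.8% of posterior and 97.8% of mixed neurons, and a Gucy1a1 UMI in 94.6%, 93.6% and 95.4%. Gucy1b1 was present in 62.8%, 63.7% and 62.7%, the steadiest share of the members. Asl was present in 38.6%, 34.8% and 46.5% of neurons, Ddah2 in 50.6%, 38.8% and 47.6% and Ddah1 in 21.1%, 44.8% and 27.6%. Nos1 was present in only 7.91% of anterior neurons (exact Clopper-Pearson 95% interval 6.51 to 9.50), 6.63% of posterior neurons (5.41 to 8.04) and 3.90% of mixed neurons (3.10 to 4.85). Nos3 stood at 13.6%, 11.6% and 18.3%, Prkg1 at 9.35%, 13.1% and 4.96% and Nos1ap at 4.56%, 7.12% and 4.71%. Without thinning, at the full depth of each neuron, Ass1 was in 99.1%, 96.8% and 99.7% of neurons and Nos1 in 12.0%, 12.9% and 6.26%. Beside glia, at 2000 UMIs per cell, Ass1 was in 58.3%, 52.9% and 66.2% of neurons against 9.38%, 8.33% and 4.17% of glia, and Nos1 in 5.78%, 3.32% and 2.10% of neurons against 2.08%, 1.92% and 0% of glia (0 of 72 glia in the mixed library, with an exact upper bound of 4.99%). The part of free RNA in these shares was not tested. All such intervals cover counting error only.

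How the UMIs of a member were spread over single neurons differed between members. The 10% of neurons with the most Nos1 UMIs held 99.3%, 98.7% and 100% of all Nos1 UMIs of their library. In the mixed library only 6.26% of neurons held a Nos1 UMI, so its 100% was fixed in advance. Nos1 was at 0 in 1157 of 1315 anterior, 1260 of 1447 posterior and 1873 of 1998 mixed neurons, yet reached 46.3, 41.4 and 33.0 UMIs per 10000 in single cells. Ddah1 had 167, 559 and 421 neurons at or above 1 UMI per 10000. In bins that double in width, the posterior and mixed libraries had a second peak there, at 2 to 4 (299 neurons) and 4 to 8 UMIs per 10000 (197 neurons). The anterior counts fell over the bins from 0.25 up (147, 103, 73, 70 and 24 neurons). A peak in such bins need not be a peak per unit of level: the posterior bins 0.5 to 1, 1 to 2 and 2 to 4 held 131, 151 and 299 neurons. Ass1 ran from a 10th percentile of 1.84, 1.46 and 2.59 to a 90th percentile of 8.50, 7.73 and 9.33 UMIs per 10000, with a tail up to 57.3, 74.5 and 59.5. Gucy1a1 had the narrower range, from 1.53, 1.70 and 1.97 at the 10th percentile to 6.37, 7.48 and 5.79 at the 90th and a highest neuron of 12.1, 15.1 and 14.3.

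**Figure D1:**
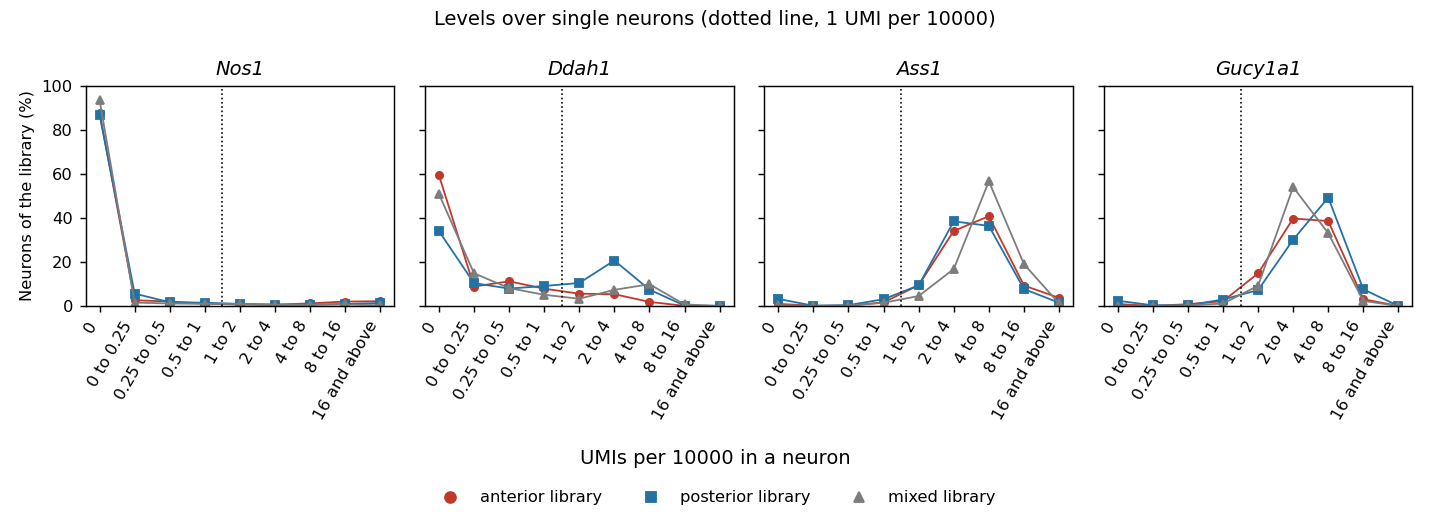
Percent of gated neurons (vertical axis) by UMIs per 10000 in the neuron (horizontal axis, unequal bins), for 4 members and 3 libraries. Nos1 was at 0 in 88.0%, 87.1% and 93.7% of anterior, posterior and mixed neurons, Ddah1 had neurons on both sides of 1 UMI per 10000, and Ass1 and Gucy1a1 peaked between 2 and 8.

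Across cell classes, both enzymes of arginine renewal were highest in neurons. Ass1 had 0.292, 0.495 and 0.391 UMIs per 10000 in glia of the anterior, posterior and mixed libraries, against 5.33, 4.87 and 6.43 in neurons. It stood at 0.361, 0.508 and 0.427 in fibroblasts, 0.261, 0.181 and 0.0895 in mural cells and 0.843, 0.630 and 0.636 in endothelial cells. No class reached the neurons' lowest library. In a single edgeR quasi-likelihood fit of UMI sums per class and library, with library as a term, Ass1 was lower than in neurons in glia (log2 change -3.96 ± 0.27 SE, Benjamini-Hochberg adjusted p = 2.4e-10), fibroblasts (-3.69 ± 0.27, adjusted p = 3.8e-10), mural cells (-5.34 ± 0.35, adjusted p = 1.2e-10) and endothelial cells (-3.30 ± 0.33, adjusted p = 8.9e-08). Relative to the neuron level, Ass1 stood at 5.49%, 10.2% and 6.08% in glia, beside medians of 10.2%, 12.5% and 9.32% for the 9 neuron genes. In endothelial cells Ass1 stood at 15.8%, 13.0% and 9.89%, within the range of the 9 neuron genes there (0 to 20.2%, 3.94 to 14.3% and 0 to 37.5%). The part of neuronal RNA in these levels was not tested.

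Asl, the second enzyme, was lower in all 4 classes too, with smaller changes than Ass1 in glia, fibroblasts and mural cells. It had 0.234, 0.318 and 0.223 UMIs per 10000 in glia, 0.193, 0.175 and 0.225 in fibroblasts and 0.326, 0.253 and 0.161 in mural cells, against 0.533, 0.486 and 0.663 in neurons of the anterior, posterior and mixed libraries. The log2 changes were -1.19 ± 0.28 (adjusted p = 0.00089), -1.56 ± 0.29 (adjusted p = 9.7e-05) and -1.47 ± 0.35 (adjusted p = 0.0012) in edgeR; without the mixed library the mural call was lost (adjusted p = 0.083). Endothelial cells had 0, 2 and 0 Asl UMIs, a log2 change of -3.36 ± 0.69 (adjusted p = 0.00045). The Ass1 to Asl ratio was 1.25, 1.56 and 1.75 in glia, against 9.98, 10.0 and 9.70 in neurons of the anterior, posterior and mixed libraries, and the exact 95% intervals of the 2 classes did not overlap.

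**Figure D2:**
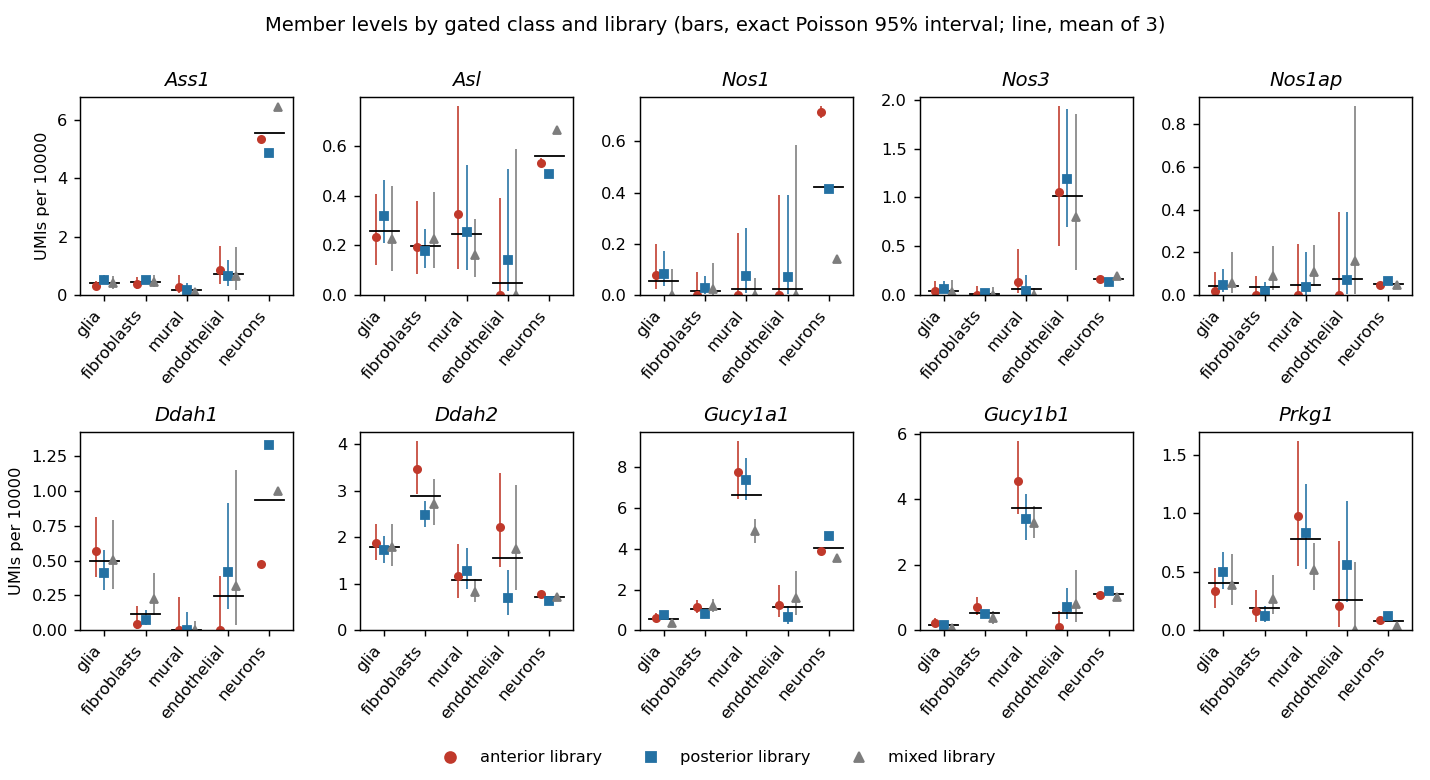
UMIs per 10000 (vertical axis) of the 10 members in gated glia, fibroblasts, mural cells, endothelial cells and neurons, 1 point per library with its exact Poisson 95% interval and the mean of 3 libraries as a line. Ass1 and Nos1 were highest in neurons, Gucy1a1, Gucy1b1 and Prkg1 in mural cells, Nos3 in endothelial cells and Ddah2 in fibroblasts.

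The synthases split by cell type. Nos3 had 1.05, 1.19 and 0.795 UMIs per 10000 in endothelial cells (10, 17 and 5 UMIs), against 0.167, 0.128 and 0.192 in neurons, and was higher there by a log2 change of 2.41 ± 0.44 (edgeR adjusted p = 0.00013). It was lower than in neurons in glia (-1.94 ± 0.56, adjusted p = 0.0046), fibroblasts (-4.04 ± 0.77, adjusted p = 0.00012) and mural cells (-2.45 ± 0.77, adjusted p = 0.010), each from at most 5 UMIs per library, and the mural call was lost without the mixed library (adjusted p = 0.27). Endothelial markers in neurons summed to 0.872, 0.718 and 0.809 UMIs per 10000, against 81.2, 71.3 and 74.4 in endothelial cells, and their part in the neurons' Nos3 level was not tested. Neurons had 869, 1028 and 2233 Nos3 UMIs in the anterior, posterior and mixed libraries.

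Nos1 stayed near 0 outside neurons. Glia of the anterior, posterior and mixed libraries held 4, 7 and 0 Nos1 UMIs, fibroblasts 0, 3 and 1, mural cells 0, 2 and 0, and endothelial cells 0, 1 and 0. Neurons held 3710, 3347 and 1633. Nos1 and Nos1ap did not pass the filter on low counts of the class comparison, so 8 of 10 members were tested there. With no filter, Nos1 was lower in glia (-3.22 ± 0.41, edgeR adjusted p = 7.8e-14), fibroblasts (-4.65 ± 0.51, adjusted p = 2.0e-18), mural cells (-4.24 ± 0.65, adjusted p = 8.4e-10) and endothelial cells (-4.29 ± 0.87, adjusted p = 7.8e-06). Nos1ap passed no threshold in any class in that fit, with 0 to 6 UMIs per class and library and 242, 519 and 530 in neurons. At its 3′ end Nos1ap is overlapped by the gene Gm7694 on the same strand, so its counts may be split between both.

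The reception side was strongest in mural cells. Gucy1b1 had 4.57, 3.40 and 3.28 UMIs per 10000 in mural cells of the anterior, posterior and mixed libraries, against 1.09, 1.19 and 1.01 in neurons, a log2 change of 1.67 ± 0.24 (edgeR adjusted p = 6.3e-06). Gucy1a1 had 7.76, 7.38 and 4.87, against 3.90, 4.61 and 3.57 in neurons. The groups did not overlap, but the change of 0.62 ± 0.23 (adjusted p = 0.028) fell short of the threshold in 6 of 14 alternatives, with an adjusted p of up to 0.27. Prkg1, the kinase activated by cyclic GMP, had 0.978, 0.832 and 0.519 UMIs per 10000 in mural cells, against 0.0856, 0.124 and 0.0385 in neurons (3.20 ± 0.37, adjusted p = 3.5e-07). The lowest mural library stood above the highest neuron library for all 3 genes.

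Glia, fibroblasts and endothelial cells held less of the cyclase than neurons. Of the neuron level, glia of the anterior, posterior and mixed libraries held 15.0%, 16.1% and 10.15% of Gucy1a1. For Gucy1b1 the shares were 19.6%, 13.9% and 5.52%. The 9 neuron genes had medians of 10.2%, 12.5% and 9.32% there, and the part of neuronal RNA in these glial levels was not tested. Gucy1a1 had 0.585, 0.743 and 0.363 UMIs per 10000 in glia (log2 change against neurons -2.94 ± 0.27, edgeR adjusted p = 1.4e-08), 1.13, 0.807 and 1.19 in fibroblasts (-2.01 ± 0.25, adjusted p = 8.3e-07) and 1.26, 0.630 and 1.59 in endothelial cells (-2.23 ± 0.32, adjusted p = 8.3e-06). Gucy1b1 was lower in the same classes, by 3.00 ± 0.33 in glia (adjusted p = 1.9e-07), 1.15 ± 0.27 in fibroblasts (adjusted p = 0.00080) and 1.37 ± 0.40 in endothelial cells (adjusted p = 0.0078) on the log2 scale. The endothelial call of Gucy1b1 was lost without the anterior library (adjusted p = 0.065). In fibroblasts there were 1.62, 1.67 and 3.31 Gucy1a1 UMIs per Gucy1b1 UMI, against 3.58, 3.88 and 3.53 in neurons, with intervals apart in the anterior and posterior libraries. In mural cells the ratio was lower in every library: there were 1.70, 2.17 and 1.49 Gucy1a1 UMIs per Gucy1b1 UMI in mural cells, against 3.58, 3.88 and 3.53 in neurons, and the exact 95% intervals did not overlap in any library. Prkg1 was higher than in neurons in glia as well, at 0.331, 0.495 and 0.390 UMIs per 10000 (2.22 ± 0.35, adjusted p = 1.7e-05). Its calls in fibroblasts (1.08 ± 0.42, adjusted p = 0.030) and endothelial cells (1.68 ± 0.69, adjusted p = 0.047) rested on 34 and 10 UMIs and were lost in 4 and 6 of 14 alternatives.

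The dimethylarginine hydrolases went opposite ways. Ddah2 had 1.87, 1.72 and 1.78 UMIs per 10000 in glia (log2 change 1.19 ± 0.22, edgeR adjusted p = 0.00010) and 3.46, 2.49 and 2.72 in fibroblasts (1.98 ± 0.22, adjusted p = 1.5e-07), against 0.787, 0.626 and 0.711 in neurons of the anterior, posterior and mixed libraries. Mural cells (1.17, 1.27 and 0.823) and endothelial cells (2.21, 0.700 and 1.75) did not pass the threshold (adjusted p = 0.080 and 0.0505), although 3 and 6 of 14 alternatives called them higher. Ddah1 had no UMI in the mural cells of any library, which places it at least 32.8-fold below neurons when 3 counts over the 3 libraries are taken as the floor. It was lower than in neurons in fibroblasts, at 0.0481, 0.0749 and 0.225 UMIs per 10000 (-3.21 ± 0.42, adjusted p = 2.5e-06), and in endothelial cells, with 0, 6 and 2 UMIs (-2.10 ± 0.59, adjusted p = 0.0062). In glia it had 0.565, 0.413 and 0.502, against 0.474, 1.33 and 0.996 in neurons. That call (-0.99 ± 0.32, adjusted p = 0.011) was lost with DESeq2 and without the posterior library (adjusted p up to 0.21), and in the anterior library glia stood above neurons. Neurons had 0.602 Ddah1 UMIs per Ddah2 UMI in the anterior library, 2.12 in the posterior and 1.40 in the mixed.

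Large shares of all genes differ between classes, and the members' counts are given beside those shares. In glia 2 members were higher (Ddah2 and Prkg1; 31.9% of all 8622 genes tested were called higher) and 6 lower (34.4% of all genes), where 66.3% were called either way. In fibroblasts 2 were higher (33.9%) and 6 lower (33.9%; 67.8% either way). In mural cells 3 were higher (28.6%) and 4 lower (31.4%; 60.1% either way), and in endothelial cells 2 were higher (24.1%) and 5 lower (29.3%; 53.4% either way). The median log2 change of the 8 tested members was -1.56, -1.78, -0.47 and -1.73 in glia, fibroblasts, mural and endothelial cells, beside -0.11, -0.01, -0.10 and -0.26 over all genes. With total UMIs in place of TMM factors the all-gene median shifted by 0.15 in glia and 0.29 in endothelial cells, and no member changed direction.

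Of 44 other genes of the pathway, 30 were tested between classes. In mural cells 10 were higher and 12 lower. The higher ones were led by Mrvi1, a substrate of the kinase that acts on calcium release, at 1.43, 1.84 and 1.61 UMIs per 10000 against at most 0.00161 in neurons (edgeR adjusted p = 1.5e-12). Cav1, the caveolar protein that binds Nos3, was higher by a log2 change of 9.05 ± 0.29 (adjusted p = 6.7e-15), the natriuretic peptide receptor Npr1 by 6.30 ± 0.54 (adjusted p = 7.3e-09) and Pde5a, a phosphodiesterase that breaks down cyclic GMP, by 5.28 ± 0.31 (adjusted p = 2.2e-11). Lower in mural cells were Azin2, Gch1 (the first enzyme of tetrahydrobiopterin synthesis, a cofactor of the synthases; -3.56 ± 0.55, adjusted p = 1.5e-05), Qdpr (which regenerates biopterin; -2.51 ± 0.31, adjusted p = 1.1e-06) and Pde2a. Endothelial cells had 7 higher and 12 lower, with Cav1 (10.2 ± 0.30), Npr1 (7.73 ± 0.56), Nostrin, a trafficking partner of Nos3 (6.62 ± 0.86), and Pde3a (2.70 ± 0.35) at the top (adjusted p of 5.8e-06 or less in edgeR). Kcnma1, a calcium-activated potassium channel, had no UMI there, against 1.12, 1.38 and 0.965 UMIs per 10000 in neurons, and Dlg4, Pts and Calm2 were the other leading losses.

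Glia stood out for an arginine transporter. Slc7a2, a cationic amino acid transporter, had 2.28, 3.67 and 3.79 UMIs per 10000 in glia, against 0.0335, 0.0403 and 0.0439 in neurons (6.18 ± 0.28, edgeR adjusted p = 5.6e-13). Its relative Slc7a1 went the other way, with 0.0780, 0.141 and 0.0279 against 0.719, 0.810 and 0.531 (-3.04 ± 0.36, adjusted p = 5.4e-07). Glia had 4 of the 30 genes higher and 17 lower; Pde1a (2.23 ± 0.40), Odc1 (0.92 ± 0.26) and Adh5 (0.78 ± 0.24) were the other higher ones, and Kcnma1, Calm2 and Pde2a were among the lowest. Fibroblasts had 9 higher, led by Cav1 (7.04 ± 0.27), Npr1 (6.76 ± 0.42), Mrvi1 and Nostrin, and 16 lower, led by Pde2a, Kcnma1, Azin2 and Calm2. The median log2 change of the list was -1.38 in glia, -0.59 in fibroblasts, -0.15 in mural cells and -0.20 in endothelial cells, with -1.01 in glia when genes without a UMI there are set to their bound.

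Within neurons, the few that held Nos1 were compared with the rest. Neurons at or above 1 Nos1 UMI per 10000 (Nos1-high) made up 84 of the anterior (6.39%), 61 of the posterior (4.22%) and 55 of the mixed neurons (2.75%) and held 97.2%, 94.3% and 92.3% of all Nos1 UMIs. Between 0.5 and 2 UMIs per 10000, near the cut, lay 22, 34 and 35 neurons. The split is a range of 1 gene and not a cell type. Nos1-high neurons were shallower, with median depths of 33729.5, 50422 and 45938 UMIs against 40373, 57440 and 57233 in Nos1-low neurons.

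Nos1-high neurons held more of both enzymes of arginine renewal. Ass1 had 19.1, 14.2 and 16.3 UMIs per 10000 in Nos1-high neurons of the anterior, posterior and mixed libraries, against 4.58, 4.50 and 6.20 in Nos1-low neurons, a log2 change of 1.67 ± 0.09 (edgeR adjusted p = 2.2e-08). Asl had 0.973, 1.05 and 1.23, against 0.510, 0.464 and 0.650 (0.97 ± 0.08, adjusted p = 1.5e-06). The sides did not overlap for either gene. Ddah2 was higher by 0.49 ± 0.07 (adjusted p = 0.00036), from 1.09, 0.918 and 0.990 against 0.771, 0.615 and 0.704. Gucy1b1 was higher by 0.26 ± 0.08 (adjusted p = 0.037), a call lost in 7 of 15 alternatives, including without the anterior and without the mixed library (adjusted p up to 0.77).

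Other members were lower in Nos1-high neurons. Ddah1 had 0.232, 0.492 and 0.283 UMIs per 10000 in Nos1-high neurons, against 0.487, 1.36 and 1.01 in Nos1-low neurons (-1.52 ± 0.12, edgeR adjusted p = 6.7e-07). Nos1-low neurons below 1 Ddah1 UMI per 10000 had 0.146, 0.1985 and 0.122, less than Nos1-high neurons in every library. The lower Ddah1 thus rests on the Nos1-low neurons at or above 1 Ddah1 UMI per 10000. Prkg1 had 0.0374, 0.0396 and 0.0191, against 0.0882, 0.127 and 0.0390 (-1.43 ± 0.24, adjusted p = 0.0010), from 10, 12 and 5 UMIs. Gucy1a1 was slightly lower, at 3.29, 3.48 and 3.27 against 3.94, 4.65 and 3.58 (-0.31 ± 0.06, adjusted p = 0.0028). Nos3 (0.03 ± 0.13, adjusted p = 0.92) and Nos1ap (-0.71 ± 0.26, adjusted p = 0.11) did not pass. In all, 4 of 9 members were higher, where 5.95% of 13273 genes were, and 3 were lower, where 6.12% were (12.1% either way). Without library as a term only Ass1 stayed past the threshold (adjusted p = 0.0090), and with each neuron thinned to 10000 UMIs 4 members did, the calls of Gucy1a1, Gucy1b1 and Prkg1 being lost. With 1 sum per side and library the fit had 2 residual degrees of freedom.

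**Figure D3:**
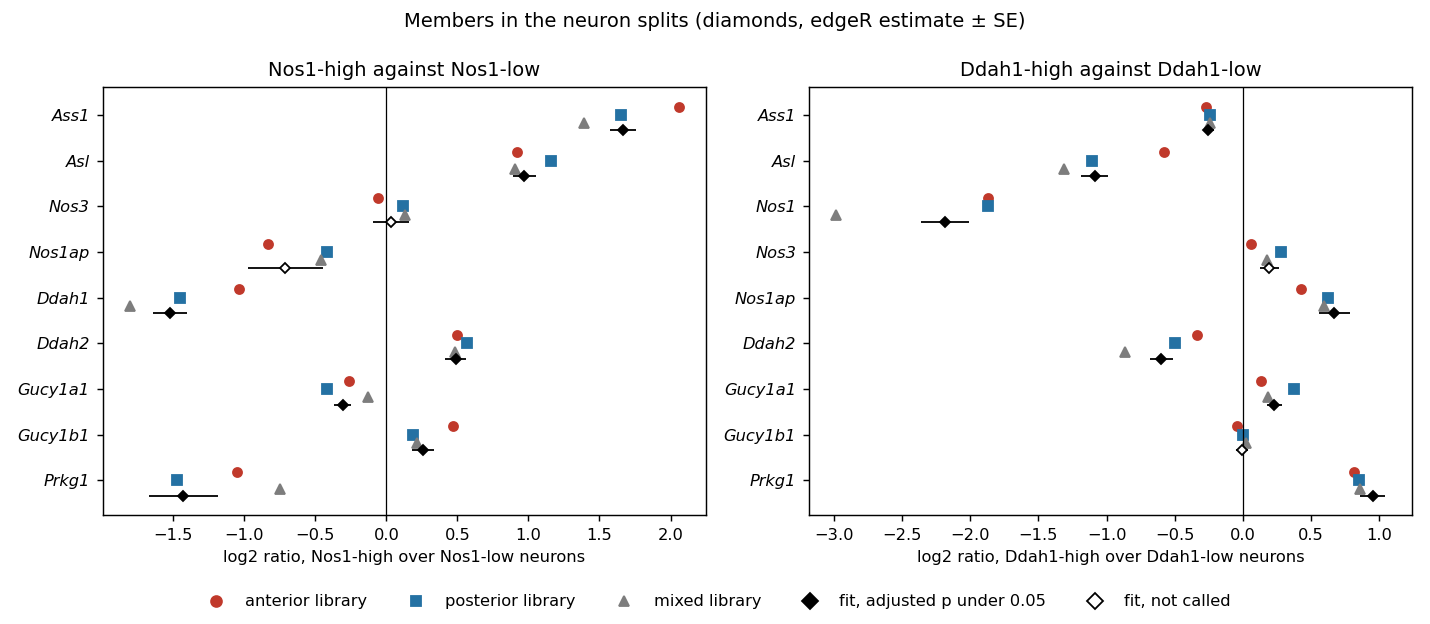
Log2 ratio (horizontal axis) of 9 members in Nos1-high over Nos1-low neurons (left) and in Ddah1-high over Ddah1-low neurons (right), 1 point per library with 0.01 UMIs per 10000 added, and the edgeR estimate with its SE as a diamond. Ass1 and Asl were above 0 in every library on the left and below 0 in every library on the right.

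Other pathway genes and transmitter genes also differed in Nos1-high neurons. Of 37 other pathway genes tested, 6 were higher and 2 lower. Gch1 had 0.835, 0.799 and 0.944 UMIs per 10000 in Nos1-high neurons, against 0.389, 0.357 and 0.524 in Nos1-low neurons (1.00 ± 0.09, edgeR adjusted p = 2.8e-06). Nostrin (5.35 ± 0.51), Pde5a (2.20 ± 0.22) and Pde3a (1.07 ± 0.17) were higher, and Pde11a (-1.37 ± 0.22) and Slc7a1 (-0.41 ± 0.10) lower, with adjusted p of 0.013 or less. The median log2 change of the list was 0.05, beside -0.02 over all genes. Vip, the gene of vasoactive intestinal peptide, had 15.1, 16.5 and 7.27 UMIs per 10000, against 0.0961, 0.237 and 0.0898 (6.51 ± 0.17, adjusted p = 7.3e-12). Npy, the gene of neuropeptide Y, was higher (0.99 ± 0.07, adjusted p = 4.1e-07). Th, the first enzyme of catecholamine synthesis (-1.04 ± 0.19, adjusted p = 0.0019), Slc5a7, the choline transporter (-0.51 ± 0.07, adjusted p = 0.00017), and Dbh, Cartpt and Slc18a3 (-0.50, -0.30 and -0.29) were lower, while Gal and Chat did not pass. Dbh went the other way in the mixed library, at 0.616 in Nos1-high against 0.531 in Nos1-low neurons.

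By the size of the change, the leading genes beside Vip were Sp5, a zinc finger transcription factor (7.27 ± 0.44), Alk, a receptor tyrosine kinase (6.49 ± 0.47), Mal2 (6.43 ± 0.37) and Bnc2 (6.42 ± 0.42). Each had 0.0268 to 0.371 UMIs per 10000 in Nos1-high neurons and at most 0.00542 in Nos1-low neurons. The leading lower genes were Mucl1, Jchain, Lyz2, Cd74 and Bmp3. Of these, Jchain, Lyz2 and Cd74 are genes of immune cells, with 0.580, 0.375 and 0.675 UMIs per 10000 in posterior Nos1-low neurons and at most 0.00995 in those of the other libraries. The genes whose level followed Nos1 over single neurons, by Pearson correlation of log counts, were Vip (r of 0.824, 0.644 and 0.673 over 1315, 1447 and 1998 neurons), Rtp1, C1ql2, Galr1 and Cited1 (lowest r of a library 0.553, 0.526, 0.498 and 0.497). Neurons of a library share its depth range and any free RNA, so these values are descriptions.

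The higher Ass1 of Nos1-high neurons lay mostly in those that also held Vip, a split chosen after the values were seen. Vip was at or above 1 UMI per 10000 in 61 of 84, 23 of 61 and 23 of 55 Nos1-high neurons of the anterior, posterior and mixed libraries. Ass1 had 24.0, 32.5 and 31.8 UMIs per 10000 in Nos1-high neurons with Vip, against 7.61, 5.87 and 7.13 in those without. Nos1-low neurons with Vip (15, 26 and 27 cells) had 6.40, 9.82 and 6.71, and Nos1-low neurons without Vip 4.55, 4.36 and 6.19. Asl had 1.04, 1.78 and 1.33 in Nos1-high neurons with Vip, against 0.814, 0.715 and 1.17 in those without, so its levels were less far apart. Gucy1b1 followed Ass1 at a smaller scale, with 1.66, 1.77 and 1.48 against 1.08, 1.16 and 0.996. Nos1 itself was higher in the neurons with Vip, at 17.2, 19.8 and 10.8 against 4.73, 6.14 and 2.77.

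**Figure D4:**
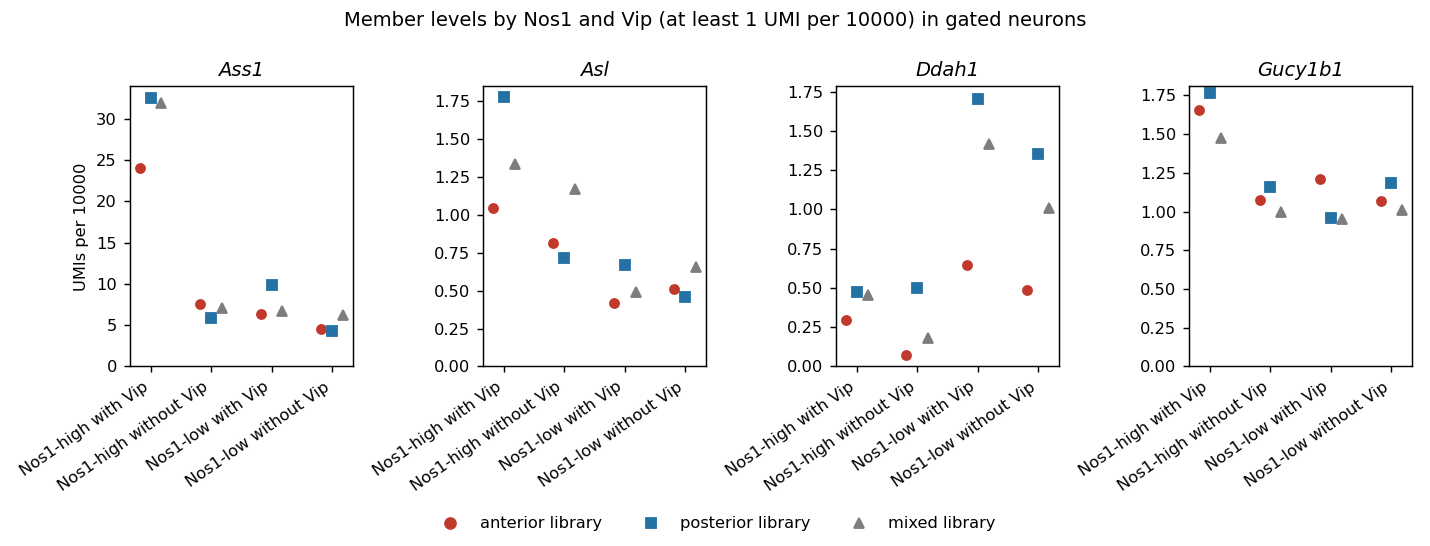
UMIs per 10000 (vertical axis) of Ass1, Asl, Ddah1 and Gucy1b1 in neurons at or above 1 UMI per 10000 (high, or with Vip) and below it (low, or without Vip), 1 point per library. Ass1 stood at 24.0 to 32.5 in Nos1-high neurons with Vip and at 4.36 to 9.82 in the other groups.

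Neurons were also split by Ddah1. Those at or above 1 Ddah1 UMI per 10000 (Ddah1-high) made up 167 of the anterior (12.7%), 559 of the posterior (38.6%) and 421 of the mixed neurons (21.1%) and held 72.9%, 91.4% and 90.2% of all Ddah1 UMIs, with 176, 282 and 166 neurons between 0.5 and 2. In the anterior library this is a cut on a range with no second peak even in bins that double in width. Few of the Ddah1-high neurons were Nos1-high: 3, 7 and 2 neurons were in both. Thus 3.57%, 11.5% and 3.64% of Nos1-high neurons were Ddah1-high, against 13.3%, 39.8% and 21.6% of Nos1-low neurons. The exact 95% intervals of these shares did not overlap in any library. The share of Ddah1-high neurons that were Nos1-high was 1.80%, 1.25% and 0.475%.

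Ddah1-high neurons held less Asl and slightly less Ass1. Asl had 0.371, 0.287 and 0.302 UMIs per 10000 in Ddah1-high neurons of the anterior, posterior and mixed libraries, against 0.559, 0.630 and 0.763 in Ddah1-low neurons (-1.09 ± 0.10, edgeR adjusted p = 7.9e-06). Ass1 had 4.51, 4.39 and 5.63, against 5.45, 5.21 and 6.65 (-0.26 ± 0.04, adjusted p = 0.00058), a call lost after thinning to 10000 UMIs (-0.10, adjusted p = 0.39). The Ddah1-low side holds most Nos1-high neurons, which are rich in Ass1. In neurons that were neither Nos1-high nor Ddah1-high, Ass1 had 4.63, 4.73 and 6.36, and Asl had 0.53, 0.60 and 0.75. This Ass1 level was closer to the Ddah1-high level in the anterior and posterior libraries, but closer to the Ddah1-low level in the mixed library. Ddah2 was lower by 0.60 ± 0.08 (adjusted p = 0.00023), with 0.641, 0.503 and 0.428 against 0.810, 0.715 and 0.789. Nos1 had 0.210, 0.157 and 0.0134, against 0.794, 0.601 and 0.175 (-2.19 ± 0.18, adjusted p = 2.8e-06). This restates the small overlap of the 2 high groups. Neurons that were neither had 0.0232, 0.0280 and 0.01365, so the lower Nos1 rests on the Nos1-high neurons of the Ddah1-low side.

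Prkg1, Nos1ap and Gucy1a1 were higher in them. Prkg1 had 0.143, 0.171 and 0.0648 UMIs per 10000 in Ddah1-high neurons, against 0.0766, 0.0905 and 0.0312 in Ddah1-low neurons (0.95 ± 0.09, edgeR adjusted p = 1.1e-05). Gucy1a1 was higher by 0.23 ± 0.05 (adjusted p = 0.0067), at 4.22, 5.33 and 3.95 against 3.85, 4.09 and 3.47. Nos1ap was higher by 0.67 ± 0.11 (adjusted p = 0.00082), at 0.0628, 0.0836 and 0.0656 against 0.0441, 0.0506 and 0.0399, a call lost after thinning to 10000 UMIs. Gucy1b1 (-0.01 ± 0.05, adjusted p = 0.95) and Nos3 (0.19 ± 0.07, adjusted p = 0.058) did not pass, and Nos3 passed in 3 of 15 alternatives. So 3 of 9 members were higher, where 12.5% of 13981 genes were, and 4 were lower, where 12.9% were (25.4% either way). No member was called without library as a term (edgeR adjusted p of Asl 0.051; 4 members had an unadjusted p under 0.05), and this fit too had 2 residual degrees of freedom.

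Of 40 other pathway genes tested in this split, 8 were higher and 13 lower, with a median log2 change of -0.05, beside 0.00 over all genes to 2 decimals. Genes that handle cyclic nucleotides stood on both sides. Pde1a, a calmodulin-dependent phosphodiesterase, had 0.151, 0.177 and 0.196 UMIs per 10000 in Ddah1-high neurons, against 0.00914, 0.0102 and 0.00866 in Ddah1-low neurons (4.25 ± 0.13, edgeR adjusted p = 1.9e-09). Prkg2, a second kinase of cyclic GMP (2.34 ± 0.12, adjusted p = 7.9e-08), Pde2a (1.47 ± 0.10, adjusted p = 7.2e-07) and Arg2, an arginase (2.87 ± 0.49, adjusted p = 0.0010, at most 0.00593 UMIs per 10000), were higher. Pde3a (-1.75 ± 0.11), Pde5a (-1.61 ± 0.18), Cav1 (-3.62 ± 0.61) and Nostrin (-1.55 ± 0.53) were lower, with adjusted p of 0.050 or less and Nostrin at the threshold.

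Among transmitter genes, Npy had 9.61, 6.71 and 5.43 UMIs per 10000 in Ddah1-high neurons, against 48.4, 46.1 and 50.1 in Ddah1-low neurons (-2.78 ± 0.12, edgeR adjusted p = 2.3e-08). Gal, the gene of galanin, was higher (3.44 ± 0.11, adjusted p = 4.9e-09), as was Dbh, the enzyme that makes noradrenaline (1.73 ± 0.12, adjusted p = 6.0e-07). Cartpt (-1.28 ± 0.09), Vip (-0.84 ± 0.21), Th (-0.44 ± 0.09) and Slc18a3 (-0.19 ± 0.05) were lower and Slc5a7 (0.19 ± 0.05) was higher, with adjusted p of 0.017 or less, and Chat did not pass. In the mixed library Vip was not lower, at 0.2529 UMIs per 10000 in Ddah1-high against 0.2505 in Ddah1-low neurons. The Vip change was positive at a cut of 0.5 and after thinning (0.42 and 0.27, neither called). The leading higher genes were Mucl1 (8.18 ± 0.35), Gabrg1, a GABA receptor subunit (5.77 ± 0.24), Bmp3 (4.92 ± 0.13), Pnoc, the gene of nociceptin (4.79 ± 0.21), and Klhl30 (4.25 ± 0.12). Mucl1 had 0.0157, 0.810 and 2.11 UMIs per 10000 in Ddah1-high neurons, so it was nearly absent from the anterior library. Beside Npy the leading lower genes were C3, Rgs5, Tspan8 and Scg2; Rgs5 is a mural marker, and its change was 0.11 and not called in neurons of at least 20000 UMIs. Over single neurons, Ddah1 was most closely followed by AA467197, Bmp3, Efr3a, Cdh8 and Slitrk4 (lowest r of a library 0.594, 0.568, 0.523, 0.489 and 0.487).

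Members were also counted together in single neurons. At 10000 UMIs per neuron, both cyclase subunits were found in 59.8% of anterior, 61.3% of posterior and 60.1% of mixed neurons, and Ass1 with Asl in 37.7%, 32.8% and 45.8%. All 4 of these transcripts were found together in 23.3%, 22.1% and 28.0% of neurons at this depth, and in 70.7%, 70.1% and 85.4% without thinning. Nos1 with both cyclase subunits was found in 5.63%, 3.80% and 2.70%, beside 7.91%, 6.63% and 3.90% with Nos1 at all. Among 45 pairs of members, 13 had an odds ratio above 1 in every library and 5 below 1, and none was above 2 or under 0.5 in all 3. Without thinning 28 pairs were above 1, a count that moves with depth per neuron.

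Several pairs with Nos1 or Ddah1 had 1 direction in every library. Asl was in 53.8%, 55.2% and 67.9% of neurons with a Nos1 UMI, against 37.2%, 33.4% and 45.7% of those without (odds ratios 1.96, 2.45 and 2.49). Ddah2 was in 60.6%, 54.2% and 61.5%, against 49.7%, 37.7% and 47.0%. Prkg1 was in 4.81%, 5.21% and 1.28%, against 9.74%, 13.7% and 5.10%, from 5, 5 and 1 joint neurons. Other pairs with Nos1 did not keep 1 direction, such as Ass1 (odds ratios 2.51, 3.60 and 0.692) and Gucy1a1 (0.731, 0.434 and 7.94). Ass1 and Gucy1a1 remained in 91.8 to 97.8% of neurons at this depth, so few neurons lacked them and these ratios rest on small counts. In the mixed library 76 neurons held Nos1 with Ass1 and 78 held Nos1 with Gucy1a1. By level, Ass1 was higher in Nos1-high neurons of every library. Ass1 and Asl had odds ratios of 1.81, 1.71 and 1.86. For Ddah1, Asl was in 32.7%, 26.4% and 33.0% of neurons with a Ddah1 UMI, against 40.1%, 41.7% and 51.7% of those without, and Prkg1 in 12.6%, 17.0% and 7.99%, against 8.49%, 10.0% and 3.80%. Nos1 and Ddah1 themselves had odds ratios of 1.02, 0.465 and 0.529, and in the anterior library Ddah1 was in 21.2% of neurons with a Nos1 UMI and 21.1% of those without. Over single neurons, the level of Ass1 had a correlation with Asl of 0.328, 0.426 and 0.340, and Gucy1a1 with Gucy1b1 of 0.237, 0.374 and 0.223.

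For the other members the closest genes were named in the same way. Ass1 was most closely followed by Fdps, Ubb, Tuba1a, Aldoa and Gapdh (lowest r of a library 0.462 to 0.519), and Asl by Cd9, Tubb2a, Scg2, Fdps and Tubb4b (0.379 to 0.443). Gucy1a1 was followed by Pafah1b1, Map1b, Ank2, Map4 and Slc5a7 (0.378 to 0.407), and Gucy1b1 by Map1b, Pja2, App, Tmem30a and Hmgcs1 (0.231 to 0.285). Ddah2 was followed by Stmn1, Phox2a, Fabp5, Ifi27 and Prph (0.279 to 0.315). Nos3 and Prkg1 reached at most 0.212 and 0.241, with Rbx1 and Rab3c, and Nos1ap had no gene at 0.2 in every library.

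Between the regional libraries, Nos1 and Ddah1 were the members that differed by more than 1.5-fold. There is 1 library per region, so no test was possible and the values describe these libraries. Nos1 had 71.5 CPM (the level per 10000 UMIs times 100) in anterior neurons, against 41.5 in posterior neurons, a ratio of 1.72 (exact conditional Poisson 95% interval 1.64 to 1.80, counting error only). Such an interval treats UMIs as independent and leaves out the spread between neurons. For Nos1, 84 anterior and 61 posterior neurons held 97.2% and 94.3% of the UMIs. The mixed library stood below both, at 14.0 CPM. Ddah1 had 47.4 CPM in anterior neurons, against 133 in posterior neurons, a ratio of 0.357 (0.341 to 0.373), with the mixed library between them at 99.6. With neurons that held 3 or more markers of another class left out, Nos1 had 68.0 CPM in anterior and 50.3 in posterior neurons and was no longer past 1.5-fold, while Ddah1 was (52.0 and 135 CPM).

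The high neurons were also described by number and level. Nos1-high neurons made up 6.39% of anterior neurons (5.13 to 7.85), against 4.22% of posterior neurons (3.24 to 5.38), intervals that overlap, and their median Nos1 level was 10.4 UMIs per 10000, against 8.65, with 5.55 in the mixed library. Ddah1-high neurons made up 12.7% (10.9 to 14.6), against 38.6% (36.1 to 41.2), with medians of 2.26 and 2.69 UMIs per 10000. In neurons that were neither, Ass1 had 4.63 UMIs per 10000 in the anterior, against 4.73 in the posterior library, and 6.36 in the mixed one.

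The other members differed less between anterior and posterior neurons. The ratio was 1.31 (1.20 to 1.44) for Nos3, 1.26 (1.21 to 1.31) for Ddah2, 1.09 (1.08 to 1.11) for Ass1 and 1.10 (1.05 to 1.15) for Asl. It was 0.847 (0.833 to 0.862) for Gucy1a1, 0.919 (0.890 to 0.950) for Gucy1b1, 0.689 (0.614 to 0.771) for Prkg1 and 0.724 (0.619 to 0.845) for Nos1ap, which stayed under the floor of 10 CPM. Of 8244 genes above that floor, 0.218% were higher and 1.43% lower past 1.5-fold, or 18 and 118 genes (1.65% either way), against 2 of the 9 members above it. With TMM scaling the median log2 ratio of all genes was 0.03 in place of -0.08 and the split 55 higher and 85 lower, and the directions of Nos1 and Ddah1 held. Of the other pathway genes above the floor of 10 CPM only Pde2a was past the fold, with 25.1 CPM in anterior neurons, against 44.4 in posterior neurons, and 2.60 in the mixed library. Below that floor, Pde1a had 2.83 CPM in anterior, against 7.99 in posterior neurons (ratio 0.354, 0.294 to 0.425), and Prkg2 had 3.55, against 9.32 (0.380, 0.322 to 0.447). With each neuron weighed the same, Prkg2 reached the floor and was past the fold (3.99 and 10.0 CPM).

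**Figure D5:**
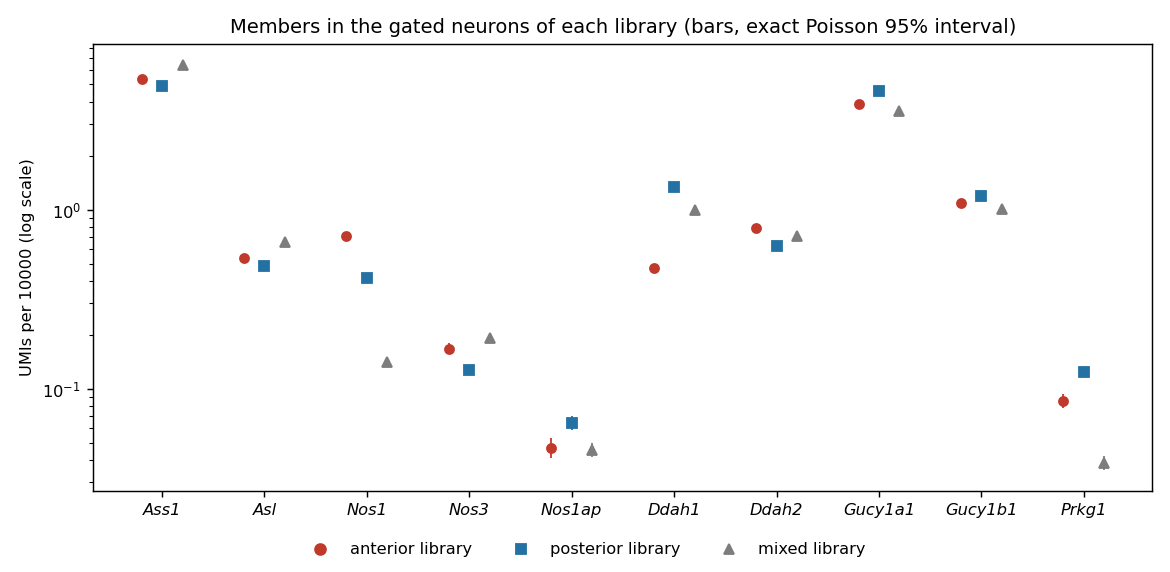
UMIs per 10000 (vertical axis, log scale) of the 10 members in the gated neurons of the anterior, posterior and mixed libraries, with exact Poisson 95% intervals, most smaller than the points. Nos1 was highest in the anterior library, then the posterior, then the mixed (0.715, 0.415 and 0.140), and Ddah1 was lowest in the anterior library (0.474, against 1.33 and 0.996).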

How the data were processed

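UMI counts per gene and barcode were used as deposited by the authors: whole numbers with no normalization, 1 matrix per library. Per the file headers, Cell Ranger 6.1.2 wrote the anterior and posterior matrices and Cell Ranger 3.1.0 the mixed one; the submitters' processing notes name Cell Ranger 7.1.0, Seurat 4.4.2 and mm10. Members were matched by symbol and Ensembl identifier. No doublet caller was run; an alternative left out neurons with 3 or more markers of another class. UMI sums per class or side and library (30406 shared features) were tested with edgeR 4.0.16 in R 4.3.3 (TMM, filterByExpr, quasi-likelihood F test, library as a term, Benjamini-Hochberg adjustment over all genes tested, threshold 0.05), after a check on simulated counts. Sides and classes of 1 library share its cells' source, so the library term pairs them. The simulated counts held no library effect, so that check did not cover the library term. DESeq2 1.42.0 was an alternative. Shares used neurons thinned to 10000 UMIs. Members, gene lists and cuts were chosen with earlier results of these data known. Beside the members, the text names at most the 4 highest and 4 lowest called genes of the pathway list per comparison, 9 transmitter genes, and in each neuron split the 5 highest and 5 lowest called genes above 10 CPM that moved the same way in every library. For each member the 5 genes most correlated over neurons are named if every library reached 0.2. Anterior and posterior neurons were compared by CPM with 1 CPM added and no test.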

Additional observations from a re-analysis of the deposited data

How the results depend on the processing

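Every count of members called between classes stayed within 1.5 times under all 14 alternatives (no library term, other scaling, DESeq2, other filters, each library left out, other gates). In the neuron splits the block for library mattered most. With no replicate block, 260 genes and 1 member were called between Nos1-high and Nos1-low neurons, and 389 genes and 0 members between Ddah1-high and Ddah1-low neurons (1602 and 3556 genes with the block); 4 members had an unadjusted p under 0.05 in that last edgeR fit, and DESeq2 with the block called 7. Thinning to 10000 UMIs gave 669 genes and 4 members in the Nos1 split and 1595 genes and 5 members in the Ddah1 split, and DESeq2 gave 2066 genes in the Ddah1 split. With 1 library left out, the Nos1 split called 970 to 1228 genes and the Ddah1 split 2327 to 3829. Values that turned sign were near 0 or uncalled: Nos3 in the Nos1 split (-0.0027 with no filter, -0.0052 to 0.041 with 1 library left out, -0.03 without neurons holding other markers, -0.058 at a cut of 0.5), Gucy1b1 in the Ddah1 split (0.0028 with DESeq2 size factors, 0.0025 in DESeq2, -0.015 to 0.011 with 1 library left out, 0.0032 without the mixed one, 0.028 at a cut of 0.5, 0.056 after thinning), Rgs5 (0.11 in neurons of at least 20000 UMIs) and Vip (0.42 at a cut of 0.5, 0.27 after thinning); the cause was not tested. Between regions, 1 member was past 1.5-fold without neurons holding other markers, and 266 genes were when each neuron weighed the same (136 by sums). The number of members in more than 50% of neurons of every library was 3, and 5 without thinning or 1 at 2000 UMIs. Pairs with an odds ratio above 1 in every library numbered 28 without thinning; 13 with it. Endothelial cells, with 62930 to 142848 UMIs per library, limit what can be seen of rare members there. No paired analysis was possible because each region has 1 library, for the comparison of anterior with posterior neurons.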

Other observations

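Members were also counted in gated cells that entered no comparison. There were 46 anterior, 35 posterior and 1 mixed cardiomyocytes. In the anterior and the posterior library they held Gucy1a1 at 1.48 and 1.61 UMIs per 10000 (29 and 13 UMIs), Gucy1b1 at 0.511 and 0.621 (10 and 5 UMIs) and Ass1 at 1.18 and 1.49 (23 and 12 UMIs). These cells also held 8 neuron genes at a summed 22.5 and 29.9 UMIs per 10000, against 69.3 and 68.5 in neurons, and the part of neuronal RNA in their Gucy1a1, Gucy1b1 and Ass1 was not tested. Macrophages (17, 57 and 26 cells) held 0, 0 and 2 UMIs of Ddah2, the member that was highest in fibroblasts and glia, and 3, 18 and 2 UMIs of Ass1. Nos3 had 7 UMIs in the 69 epithelial or mesothelial cells of the posterior library and none in the cardiomyocytes, macrophages or lymphocytes of any library.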
